A study of Sinotaia aeruginosa with 24 samples.

Results

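The effect of adding polystyrene microplastic to a cadmium-bearing diet was examined in the liver of a freshwater snail. Its samples are labelled Sinotaia aeruginosa, while the title of the series has the name Bellamya aeruginosa. The members are 6 of the 24 RNA-seq samples of the series, chosen by their tissue and treatment labels. They are 3 combined livers, from snails given algae with cadmium and polystyrene each at a level labelled as medium concentration, and 3 cadmium livers, from snails given algae with cadmium alone at the medium concentration. Both groups were therefore cadmium-fed, and all samples were taken on day 42. The 3 livers of snails given polystyrene alone at the medium concentration and the 3 livers labelled No handling entered the fit to share 1 estimate of the spread, and 12 brain samples with the same 4 treatments served for comparison. The amounts behind medium concentration are not stated in the labels. Whether each sample is a different snail is not stated, so p-values reflect only how far these samples spread, which may be technical.

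The organ labelled liver corresponds in snails to the digestive gland, which makes digestive enzymes, absorbs and stores nutrients, and takes up and holds metals from food. Cadmium is a toxic metal that binds sulfur groups of proteins and is known in many animals to call forth chaperones, the proteins that help others to fold. In the endoplasmic reticulum (ER), misfolded secretory proteins set off the unfolded protein response, in which transcription factors raise the genes of ER chaperones. Cytochromes P450 and ATP-binding cassette (ABC) transporters oxidise and pump out foreign compounds. Roles given below are those known from mammals or other animals for the named protein. Each gene name is the best database match of an assembled cluster, so it gives a family and not a proven orthologue. Several clusters share a product name, and reads may be split between near-identical copies.

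The 3 combined livers held 16518155, 13895435 and 15519575 expected counts and the 3 cadmium livers 14334709, 15525879 and 15485591, within the range of 13712265 to 17145998 over all 24 samples. Digestive markers fitted the label: summed carbohydrate-digesting enzymes stood at 26770 to 33640 CPM (counts scaled to a fixed library total) in the 12 livers and at 3617 to 8001 CPM in the 12 brains. On the first principal component of the 6 livers, with 39.5% of the variance, the combined livers lay between 56.65 and 77.34 and the cadmium livers between -86.29 and -42.88. On the second, with 22.5%, combined replicate 1 lay alone at 108.63 and the other 5 livers between -52.88 and 0.52. No pair of replicates in the livers agreed within sampling noise.

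Adding polystyrene to cadmium went with a change in 1393 of 55762 clusters tested, a share of 2.5%. Of these, 622 (1.12% of those tested) were higher and 771 (1.38%) lower in combined livers, at an adjusted p under 0.05 in edgeR's quasi-likelihood test. The median log2 fold change was 1.84 among those higher and -2.21 among those lower, against 0.00 over all clusters tested. Changes were of every size: 332 called clusters differed by less than 1 on the log2 scale and 472 by more than 3. An informative product name was held by 420 called clusters, 161 higher and 259 lower. The number of calls rested on single libraries, being 2007 without combined replicate 1, 765 without combined replicate 2 and 442 without combined replicate 3. It was 479 without cadmium replicate 1, 605 without cadmium replicate 2 and 1622 without cadmium replicate 3. In all 12 fits that left out 1 liver, 267 clusters kept their call, 117 higher and 150 lower. Genes described below as held kept their call in all 12 of these fits. The percent of a list called is to be read beside 1.12% of all clusters called higher and 1.38% lower.

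**Figure D1:**
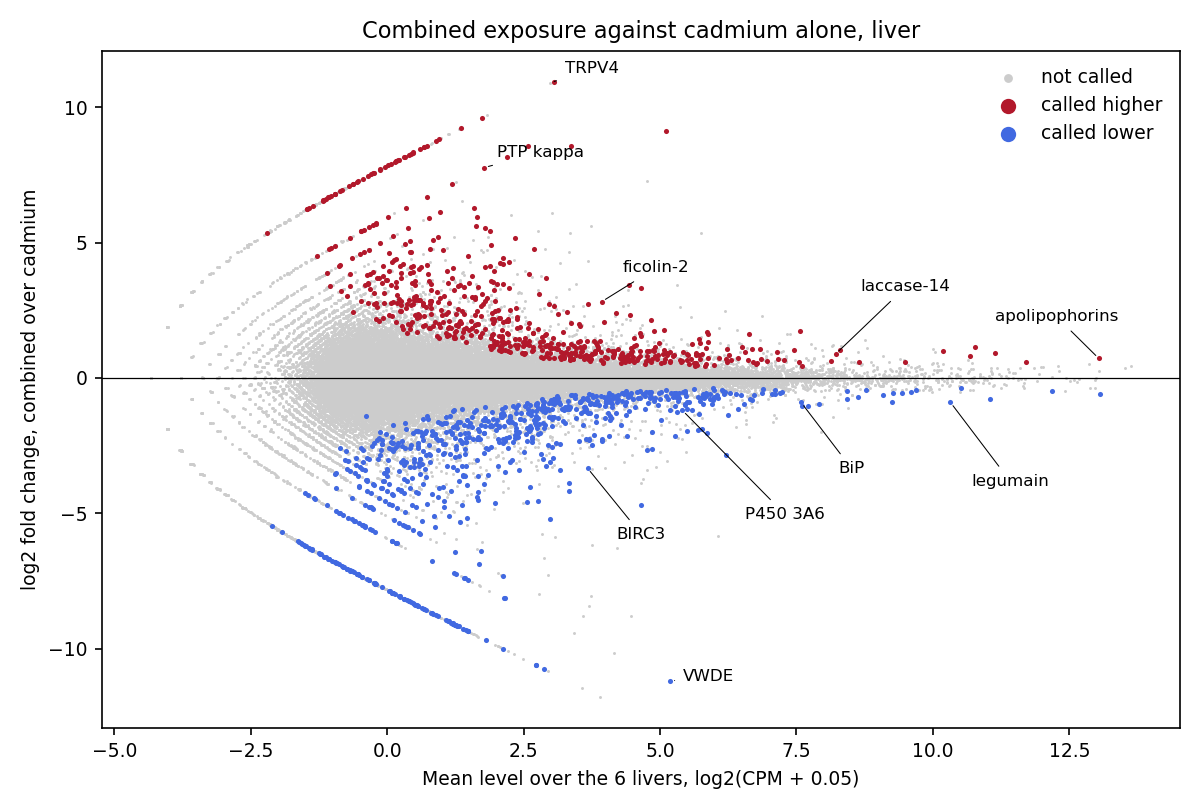
Each point is 1 of the 55762 clusters tested in liver, with its mean level over the 6 livers as log2(CPM + 0.05) on the x axis and its log2 fold change, combined over cadmium, on the y axis; red points were called higher, blue points lower and grey points were not called. Called clusters span the range of levels, from near-absent transcripts at the edges to apolipophorins at the right.

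The ER chaperones formed the list with the largest share of calls among the 39 lists. Of 23 members tested, 9 fell (39.1%, beside 1.38% of all clusters called lower), none rose, and 22 had a log2 fold change below 0, with a list median of -0.46. In 15 of the 23 the 3 combined and 3 cadmium livers did not overlap, as was the case in 20.9% of all clusters tested. Their summed level was 2241, 2051 and 2032 CPM in the combined livers, against 2412, 2723 and 3062 CPM in the cadmium livers. The groups did not overlap, and the exact two-sided permutation test gave p = 0.1, the smallest that 3 against 3 samples allow. Polystyrene livers averaged 2088 CPM and unexposed livers 2408 CPM.

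BiP (Cluster-2499.85374), the main Hsp70 of the ER and a classical target of the unfolded protein response, had 146, 126 and 129 CPM in the combined livers, against 191, 258 and 303 CPM in the cadmium livers. All combined livers lay below all cadmium livers. Its log2 fold change was -0.91 ± 0.15 (SE, adjusted p = 0.0098), a call that was held with a highest adjusted p of 0.0461 when 1 library was left out. It was the only member of the list to do so. Endoplasmin (Cluster-2499.83154), the ER form of Hsp90, had 80.7, 73.8 and 67.0 CPM in combined livers, against 106, 135 and 152 CPM in cadmium livers. It fell by 0.83 ± 0.15 on the log2 scale (adjusted p = 0.0114), and the adjusted p was 0.0548 without combined replicate 3. Protein disulfide-isomerase A4 (Cluster-2499.93179), which forms disulfide bonds, had 22.1, 15.3 and 19.2 CPM in combined livers, against 31.6, 34.4 and 42.4 CPM in cadmium livers. It fell by 0.94 ± 0.17 (adjusted p = 0.0134, and 0.0509 without combined replicate 2). In each of these genes the 3 samples of a group lay apart from those of the other.

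The other 6 called ER chaperones cover the lectin cycle, disulfide exchange and the partners of BiP. Calreticulin, a lectin chaperone that holds calcium, averaged 254 ± 49.98 CPM in combined livers and 435 ± 85.4 CPM in cadmium livers (SD, n = 3 each). Its membrane-bound relative calnexin averaged 35.1 ± 3.81 CPM in combined livers and 50.3 ± 4.11 CPM in cadmium livers. Protein disulfide-isomerase A6 averaged 18.2 ± 1.89 CPM in combined livers and 30.3 ± 4.99 CPM in cadmium livers. Of the co-chaperones of BiP, DNAJB11 stood at 14.6 ± 3.88 CPM in combined livers and 26.8 ± 3.49 CPM in cadmium livers, and DNAJC3 at 41.8 ± 1.37 CPM in combined livers and 56.0 ± 0.452 CPM in cadmium livers. The secreted ER stress factor MANF stood at 16.6 ± 0.727 CPM in combined livers and 28.4 ± 4.98 CPM in cadmium livers. Log2 fold changes of these 6 ran from -0.87 for DNAJB11 to -0.42 for DNAJC3, with adjusted p from 0.0201 for MANF to 0.0451 for calreticulin. None of the 6 was held. All lost the call without cadmium replicate 2, combined replicate 2 or combined replicate 3, with adjusted p up to 0.152 for calreticulin and calnexin, and some also without cadmium replicates 1 or 3, control replicate 3 or a polystyrene replicate. The list count was 2 without combined replicate 2 and 2 without combined replicate 3.

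The list was not uniform in the size of change. Thioredoxin domain-containing protein 5, a disulfide isomerase and the member with the most counts, averaged 771 ± 20.9 CPM in combined livers and 893 ± 81.7 CPM in cadmium livers, and was not called (log2 fold change -0.21, adjusted p = 0.274). Of the machinery that moves proteins into and out of the ER, edgeR called 0 of 38 clusters, with a list median of -0.14. At an unadjusted p under 0.05 it counted 4, beside 9774 of all 55762 clusters tested, and DESeq2 called 0.

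**Figure D2:**
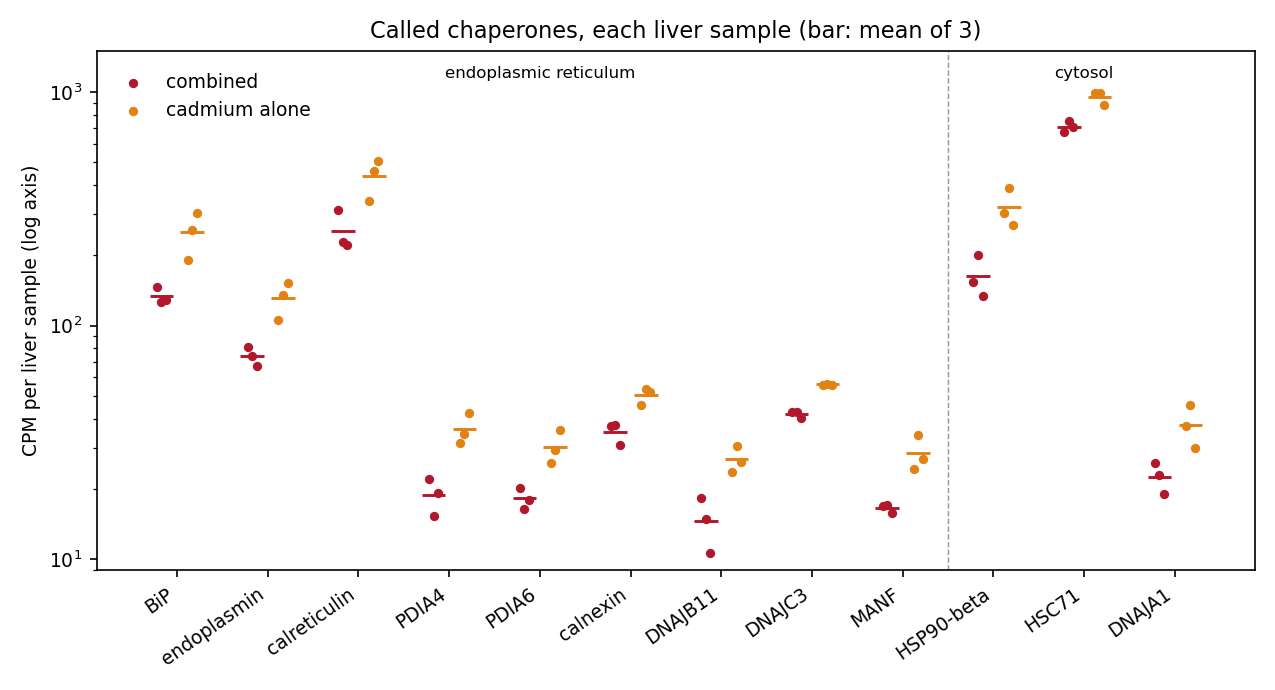
CPM on a log axis in each of the 3 combined (red) and 3 cadmium (orange) livers for the 9 called ER chaperones and 3 called cytosolic chaperones, with bars at the mean of 3. In each of the 12 genes all combined samples lie below all cadmium samples, as in BiP with at most 146 CPM in combined livers and at least 191 CPM in cadmium livers.

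Among the regulators of the unfolded protein response, 2 of 15 members fell (13.3%, beside 1.38% of all clusters) and none rose, with a median of -0.29. Without combined replicate 3 none was called. ATF-4, the transcription factor of the integrated stress response, averaged 70.7 ± 12.4 CPM in combined livers and 109 ± 10.5 CPM in cadmium livers (log2 fold change -0.62 ± 0.13, adjusted p = 0.0253). An ATF-3-like factor (Cluster-2499.61467), which in mammals acts downstream of ATF-4, had 8.54, 12.2 and 10.9 CPM in combined livers, against 20.7, 19.3 and 38.0 CPM in cadmium livers. It fell by 1.30 ± 0.26 (adjusted p = 0.0208, and 0.0767 without combined replicate 3). ATF-4 reached an adjusted p of 0.106 and lost its call without cadmium replicates 1 or 2 or combined replicates 2 or 3. X-box-binding protein 1, which carries the signal of the ER sensor IRE1, averaged 103 ± 4.76 CPM in combined livers and 134 ± 15.5 CPM in cadmium livers and was not called (adjusted p = 0.0583).

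Chaperones of the cytosol were lower in part. Of 26 tested, 3 fell (11.5%, beside 1.38% of all clusters) and none rose. In 21 the log2 fold change was below 0, and the list median was -0.08. The summed level was 1330, 1450 and 1309 CPM in combined livers, against 1898, 2071 and 1748 CPM in cadmium livers. HSP 90-beta (Cluster-2499.86504), which matures kinases and receptors, had 153, 200 and 134 CPM in combined livers, against 303, 390 and 269 CPM in cadmium livers. It fell by 0.98 ± 0.18 (adjusted p = 0.0181). The constitutive Hsp70, heat shock cognate 71 kDa protein, averaged 709 ± 40.03 CPM in combined livers and 954 ± 61.6 CPM in cadmium livers and fell by 0.43 ± 0.09 (adjusted p = 0.0257). DNAJA1, a co-chaperone of Hsp70, fell by 0.74 ± 0.16 (adjusted p = 0.0246). None of the 3 was held, and none was called without cadmium replicate 1, cadmium replicate 2 or combined replicate 3, when their adjusted p reached 0.0703 for HSP 90-beta and 0.103 for heat shock cognate 71 kDa protein. HSP 90-beta was higher in the cadmium livers than in the unexposed livers (log2 fold change 0.78, adjusted p = 0.0373), a comparison that shares the cadmium livers with the present one.

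Small heat shock proteins, which hold unfolding proteins without using ATP, had 1 of 11 members higher and none lower, with a list median of 0.37, and 0 higher and 1 lower without cadmium replicate 3. Alpha-crystallin B chain rose, with 38.1 ± 4.89 CPM in combined livers and 22.5 ± 6.52 CPM in cadmium livers (log2 fold change 0.76 ± 0.17, adjusted p = 0.0355). The call was lost in 7 of the 12 omissions, including each combined replicate, cadmium replicates 1 and 3 and polystyrene replicates 2 and 3 (adjusted p up to 0.135). DNAJB5, a further Hsp40 outside the rule for named genes, averaged 73.9 ± 7.86 CPM in combined livers and 126 ± 19.4 CPM in cadmium livers, and its call was held (log2 fold change -0.77 ± 0.13, adjusted p = 0.00835).

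Some genes that supply amino acids to translation were lower. In the list of aminoacyl-tRNA synthetases and amino acid supply, 8 of 102 members fell (7.84%, beside 1.38% of all clusters) and 2 rose (1.96%, beside 1.12%). Below 0 lay 66, and the median was -0.18. The sodium- and chloride-dependent amino acid transporter B(0+) (Cluster-2499.85536), which takes up neutral and basic amino acids, had 27.0, 31.5 and 29.5 CPM in combined livers, against 51.5, 70.6 and 53.7 CPM in cadmium livers. It fell by 0.997 ± 0.14 on the log2 scale (adjusted p = 0.00356), and a second cluster of that name (Cluster-2499.79637) fell by 0.89 ± 0.16 (adjusted p = 0.0118). Both calls were held. The cadmium livers stood at the level of the unexposed livers in Cluster-2499.85536 (58.6 ± 10.5 CPM in cadmium livers and 60.8 ± 1.88 CPM in unexposed livers).

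Among those that fell were 4 synthetases, which join an amino acid to its tRNA. Valine-tRNA ligase averaged 41.7 ± 5.75 CPM in combined livers and 70.3 ± 8.78 CPM in cadmium livers (log2 fold change -0.75 ± 0.14, adjusted p = 0.0122, and 0.0594 without combined replicate 3). The bifunctional glutamate/proline ligase averaged 67.1 ± 7.29 CPM in combined livers and 100 ± 6.30 CPM in cadmium livers (adjusted p = 0.0153). The isoleucine and methionine ligases fell by 0.69 and 0.87. Calls of the glutamate/proline, isoleucine and methionine ligases were lost without cadmium replicate 2 or combined replicate 3, and those of the isoleucine and methionine ligases also without combined replicate 2, with adjusted p up to 0.104. The list had 3 members called lower without combined replicate 3 and 14 without combined replicate 1. In a grouping made after the values were seen, 26 of 32 clusters of synthetases lay below 0.

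Cytochromes P450 of families 3 and 4 had 6 of 52 members lower (11.5%, beside 1.38% of all clusters) and none higher, while the list median was -0.02. Without combined replicate 2, 3 were called lower, and without control replicate 1, 3 were called higher. DESeq2 called 8 lower and 4 higher, beside 1792 lower and 1508 higher of all 55762 clusters tested. The log2 fold change lay above 0 in 25 members and below 0 in 27. The decrease called by edgeR was carried by a few clusters, named 3A6 (2 clusters), 3A25, 3A5, 3A8 and 4F12. CYP3A enzymes are the main drug-oxidising enzymes of the mammalian liver. The clearest was a cytochrome P450 3A6 (Cluster-2499.103464), with 23.2, 27.5 and 26.6 CPM in combined livers, against 63.0, 62.0 and 52.6 CPM in cadmium livers. It fell by 1.20 ± 0.14 (adjusted p = 0.00117). Polystyrene livers averaged 27.3 ± 0.277 CPM and unexposed livers 28.9 ± 6.09 CPM, so the cadmium livers stood above the 3 other groups. A second 3A6 cluster (Cluster-2499.89358) fell by 1.18 ± 0.21 (adjusted p = 0.0119). Cytochrome P450 3A25 (Cluster-2499.84642) had 19.9, 30.4 and 25.7 CPM in combined livers, against 50.8, 51.1 and 52.9 CPM in cadmium livers, and fell by 1.03 ± 0.18 (adjusted p = 0.0119). These 3 calls were held.

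In the comparison of cadmium with unexposed livers, which shares the cadmium livers, Cluster-2499.103464 had a log2 fold change of 1.04 (adjusted p = 0.00178) and 3A25 of 0.72 (adjusted p = 0.0442). Cytochrome P450 3A8, the member of the list with the most counts, averaged 371 ± 39.9 CPM in combined livers and 505 ± 19.3 CPM in cadmium livers (log2 fold change -0.45, adjusted p = 0.0393). Its call was lost without any 1 of the 6 compared livers, polystyrene replicate 2 or polystyrene replicate 3 (adjusted p up to 0.124). Outside these families, cytochrome P450 2U1 (Cluster-2499.95852), a fatty acid hydroxylase in mammals, had 32.1, 22.0 and 16.7 CPM in combined livers, against 59.1, 57.9 and 51.4 CPM in cadmium livers (log2 fold change -1.25 ± 0.22, adjusted p = 0.0134, held). Of the other cytochromes P450 2 of 108 were higher (1.85%, beside 1.12% of all clusters) and 4 lower (3.7%, beside 1.38%). There were 0 higher and 1 lower without cadmium replicate 1 or combined replicate 3, and 0 higher without cadmium replicate 2. NADPH-cytochrome P450 reductase, the electron donor of these enzymes, averaged 109 ± 7.02 CPM in combined livers and 109 ± 7.28 CPM in cadmium livers and was not called (adjusted p = 0.983). Among conjugating enzymes 1 of 114 rose and 1 fell (0.877% each), and among antioxidant enzymes 0 of 46 rose and 1 fell (2.17%). At an unadjusted p under 0.05 there were 35 and 8 in these lists, beside 9774 of all 55762 clusters tested. DESeq2 called 8 conjugating enzymes higher and 3 lower, and 0 antioxidant enzymes higher and 3 lower. Without combined replicate 1, edgeR called 5 conjugating enzymes higher and 2 lower.

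ABC transporters were lower in 8 of 67 members (11.9%, beside 1.38% of all clusters) and higher in none, with a median of -0.07. Their summed level was 1160, 1155 and 1106 CPM in combined livers, against 1240, 1327 and 1314 CPM in cadmium livers. ABCC4 (Cluster-2499.85887), which exports organic anions and conjugates, had 52.7, 63.1 and 57.7 CPM in combined livers, against 82.96, 91.8 and 84.6 CPM in cadmium livers (log2 fold change -0.58 ± 0.10, adjusted p = 0.0117). ABCC3 (Cluster-2499.74409), a related exporter at a low level, had 1.10, 0.362 and 0.470 CPM in combined livers, against 3.68, 4.37 and 4.14 CPM in cadmium livers (log2 fold change -2.63 ± 0.43, adjusted p = 0.00835). Both calls were held. The drug efflux pump ABCB1 averaged 123 ± 12.4 CPM in combined livers and 177 ± 18.6 CPM in cadmium livers (adjusted p = 0.0199), and ABCG2, an exporter of many drugs and porphyrins, averaged 45.3 ± 2.85 CPM in combined livers and 80.5 ± 18.5 CPM in cadmium livers (adjusted p = 0.0168). Without cadmium replicate 2 or combined replicate 3 both lost their call, as did ABCG2 without cadmium replicate 1, at adjusted p up to 0.0953. In each of these omissions of cadmium replicate 2 and combined replicate 3 the list kept 2 calls, and with the replicate number as a block in the fit it had 5.

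**Figure D3:**
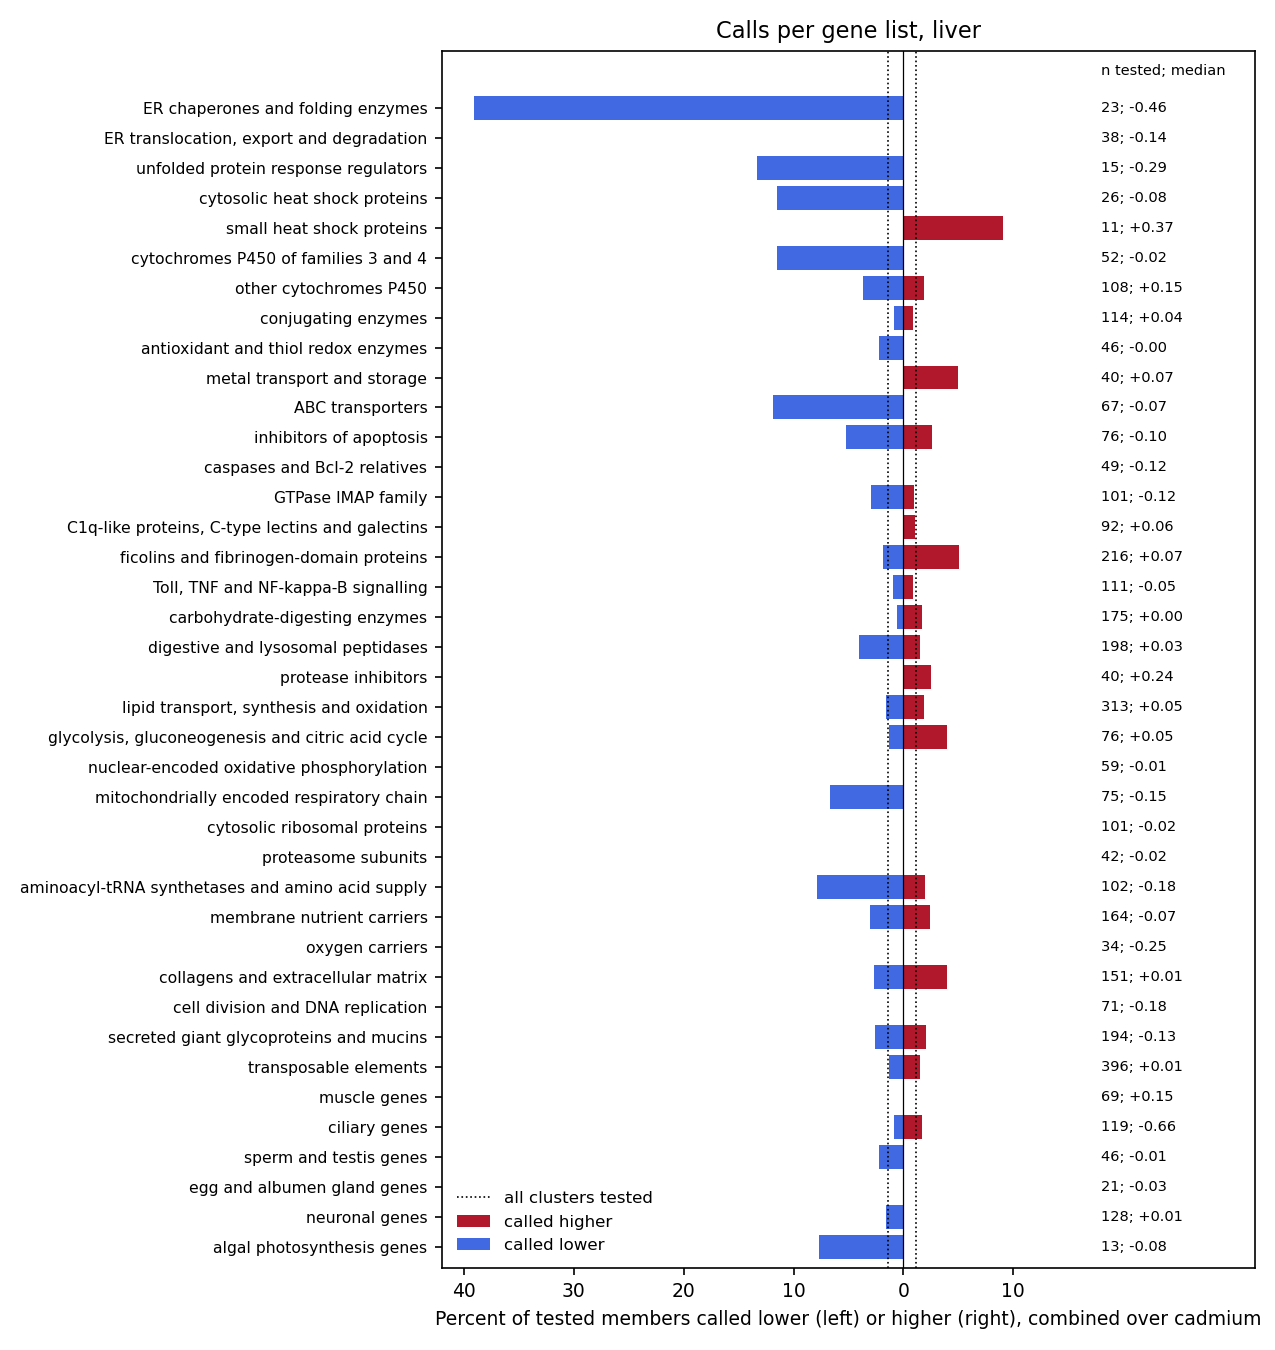
Percent of tested members called higher (red, right) or lower (blue, left) in combined against cadmium livers for each of the 39 gene lists, with the number tested and the median log2 fold change at the right; dotted lines mark the shares over all clusters tested, 1.12% higher and 1.38% lower. ER chaperones reach 39.1% lower, and ribosomal, proteasome and nuclear-encoded respiratory lists have no call.

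Inhibitors of apoptosis (IAP) are a family greatly expanded in molluscs, whose members restrain caspases and immune signalling in other animals. Of 76 tested, 2 were higher (2.63%, beside 1.12% of all clusters) and 4 lower (5.26%, beside 1.38%). None was called higher without cadmium replicate 1 or combined replicate 3. BIRC3 (Cluster-2499.108892) had 1.94, 3.25 and 1.68 CPM in combined livers, against 18.9, 35.7 and 14.7 CPM in cadmium livers. Its log2 fold change was -3.34 ± 0.40 (adjusted p = 0.00259). A cluster named apoptosis inhibitor IAP (Cluster-2499.56222) had 1.94, 1.74 and 1.21 CPM in combined livers, against 11.3, 21.8 and 8.99 CPM in cadmium livers (log2 fold change -3.10 ± 0.34, adjusted p = 0.000772). Both calls were held, and in both genes the unexposed livers lay near the combined livers, at 3.77 ± 0.440 CPM for BIRC3 and 3.24 ± 0.0352 CPM for the other. BIRC2 (Cluster-2499.85279), the called member with the most counts, went the other way, with 96.4, 93.8 and 108 CPM in combined livers, against 47.0, 45.1 and 72.4 CPM in cadmium livers. It rose by 0.86 ± 0.16 (adjusted p = 0.0161), a call lost without cadmium replicates 1 or 2 or combined replicate 3 (adjusted p up to 0.0762). Of 49 caspases and Bcl-2 relatives, which carry out or control cell death, edgeR called 0. There were 12 at an unadjusted p under 0.05, beside 9774 of all 55762 clusters tested. DESeq2 called 4, 2 in each direction, beside 3300 of all clusters.

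Several genes outside the rule for named genes, picked after their values were seen from those held, fell with BIRC3. The lowest adjusted p among them was that of A-kinase anchor protein 7 isoform gamma (Cluster-2499.81989), a protein that tethers protein kinase A in mammals. It had 8.54, 7.23 and 6.39 CPM in combined livers, against 30.8, 46.1 and 63.9 CPM in cadmium livers, a log2 fold change of -2.66 ± 0.22 (adjusted p = 0.000124). Polystyrene livers averaged 7.80 ± 0.521 CPM and unexposed livers 7.17 ± 0.354 CPM, and the cadmium livers stood apart from all 3 other groups. The NEDD8-conjugating enzyme UBC12 averaged 5.32 ± 1.38 CPM in combined livers and 25.3 ± 8.22 CPM in cadmium livers (log2 fold change -2.25, adjusted p = 0.000631). The E3 ligases arih1 and ZNF598, of which ZNF598 in mammals marks stalled ribosomes, fell by 1.73 and 1.16 (adjusted p = 0.00633 and 0.00835).

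Also picked after their values were seen were a helicase, a PARP and a group of synthases. Helicase with zinc finger domain 2 (Cluster-2499.99246) averaged 8.68 ± 1.56 CPM in combined livers and 25.2 ± 4.42 CPM in cadmium livers (log2 fold change -1.54 ± 0.17, adjusted p = 0.000631), and a PARP14 (Cluster-2499.100621), which attaches ADP-ribose to proteins, averaged 13.7 ± 1.68 CPM in combined livers and 23.6 ± 1.04 CPM in cadmium livers (log2 fold change -0.78 ± 0.13, adjusted p = 0.00821). Both were held. In groupings made after the values were seen, 4 of 9 clusters named 2'-5'-oligoadenylate synthase, which in mammals senses double-stranded RNA, were lower and none higher, with a median of -0.88, and 5 of 142 PARP clusters (3.52%, beside 1.38% of all clusters) were lower and none higher. The 4 synthase calls were each lost without cadmium replicate 1 or combined replicate 3, with adjusted p up to 0.172.

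Single genes of digestive and storage functions changed in both directions, beside 1.12% of all clusters called higher and 1.38% lower. Among the called clusters that were higher, the one with the most counts was apolipophorins (Cluster-2499.87715), the carrier of lipids in invertebrate blood. It had 10440, 10468 and 10547 CPM in combined livers, against 6519, 4875 and 7689 CPM in cadmium livers, and rose by 0.72 ± 0.14 (adjusted p = 0.0204). The combined livers hardly differed from one another, while the cadmium livers spread widely. The adjusted p reached 0.0743, and the call was lost without cadmium replicates 1 or 2 or combined replicates 2 or 3. The receptor LRP8, which takes up lipoproteins in other animals, went down, with 639 ± 37.7 CPM in combined livers and 916 ± 43.2 CPM in cadmium livers (log2 fold change -0.52 ± 0.10, adjusted p = 0.0197), a call lost without the same 4 libraries (adjusted p up to 0.0773). Over the whole lipid list 6 of 313 rose (1.92%) and 5 fell (1.6%), near the shares over all clusters, with a median of 0.05. Without cadmium replicate 1 or 2 none was called higher, and without combined replicate 3 none lower. Sterol O-acyltransferase 1, which stores cholesterol as esters and lies outside the rule, averaged 125 ± 2.70 CPM in combined livers and 83.1 ± 9.96 CPM in cadmium livers (log2 fold change 0.59 ± 0.10, adjusted p = 0.00966, held).

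Legumain (Cluster-2499.86155), a lysosomal peptidase that cuts after asparagine, had 1041, 840 and 795 CPM in combined livers, against 1293, 1548 and 2166 CPM in cadmium livers. It fell by 0.90 ± 0.16 (adjusted p = 0.0118, and 0.0552 without combined replicate 3), and the unexposed livers averaged 805 ± 67.2 CPM. In the list of digestive and lysosomal peptidases 8 of 198 fell (4.04%, beside 1.38% of all clusters) and 3 rose (1.52%, beside 1.12%). Without cadmium replicate 1 or combined replicate 3, 1 member was called lower and none higher. Digestive cysteine proteinase 2 (Cluster-2499.90937), outside the rule, averaged 33.5 ± 4.49 CPM in combined livers and 12.2 ± 4.39 CPM in cadmium livers and rose by 1.46 ± 0.21 (adjusted p = 0.00406, held).

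The list of carbohydrate-digesting enzymes had 3 of 175 higher (1.71%, beside 1.12% of all clusters) and 1 lower (0.571%, beside 1.38%). Its median was 0.00, and 1 member was higher without cadmium replicate 1. An endoglucanase (Cluster-2499.86388), which cuts cellulose, had 365, 375 and 535 CPM in combined livers, against 184, 263 and 169 CPM in cadmium livers (log2 fold change 1.05 ± 0.19, adjusted p = 0.0153, and 0.0739 without cadmium replicate 1). Acidic mammalian chitinase (Cluster-2499.85451) had 33.8, 26.8 and 29.2 CPM in combined livers, against 16.1, 14.6 and 13.99 CPM in cadmium livers (log2 fold change 1.01 ± 0.15, adjusted p = 0.0049, held). Laccase-14 (Cluster-2499.88965), a copper enzyme that oxidises phenols, had 444, 311 and 408 CPM in combined livers, against 199, 206 and 223 CPM in cadmium livers (log2 fold change 0.89 ± 0.13, adjusted p = 0.00431, held). Its level in the combined livers stood above the 3 other groups, with 202 ± 19.4 CPM in polystyrene livers and 204 ± 17.1 CPM in unexposed livers. A related multicopper oxidase named L-ascorbate oxidase (Cluster-2499.85747), outside the rule, averaged 186 ± 31.3 CPM in combined livers and 96.4 ± 8.62 CPM in cadmium livers (log2 fold change 0.95 ± 0.12, adjusted p = 0.00247, held). Counted after the values were seen, multicopper oxidases had 2 of 21 clusters higher and 2 lower, with a median of -0.67. Chlorophyllase-2 (Cluster-2499.85110), an enzyme of chlorophyll breakdown in plants, had 98.8, 158 and 126 CPM in combined livers, against 248, 284 and 250 CPM in cadmium livers (log2 fold change -1.03 ± 0.15, adjusted p = 0.00535, held). It belongs to the list of algal genes, whose 12 other tested members summed to 115.31, 113.91 and 116.0 CPM in combined livers, against 132.03, 115.74 and 119.16 CPM in cadmium livers. Without it the groups overlapped, and the list's gap lay mostly in this 1 gene.

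Ficolins and other proteins with a fibrinogen domain bind microbial sugars in the immune system of many animals. Of 216 members 11 were higher (5.09%, beside 1.12% of all clusters) and 4 lower (1.85%, beside 1.38%), with a list median of 0.07. Ryncolin-4 (Cluster-2499.86211) had 29.6, 24.01 and 22.6 CPM in combined livers, against 6.81, 3.92 and 7.28 CPM in cadmium livers (log2 fold change 2.08 ± 0.24, adjusted p = 0.00158). A ficolin-2 (Cluster-2499.90340) had 37.5, 21.8 and 20.7 CPM in combined livers, against 5.58, 2.19 and 3.57 CPM in cadmium livers (log2 fold change 2.82 ± 0.33, adjusted p = 0.00279). Both calls were held, and in both genes every cadmium liver lay below every other liver: polystyrene and unexposed livers averaged 34.6 ± 9.30 and 39.99 ± 4.27 CPM for ryncolin-4 and 30.7 ± 3.74 and 35.5 ± 6.86 CPM for ficolin-2. Against unexposed livers, the cadmium livers had a log2 fold change of -2.74 for ryncolin-4 (adjusted p = 0.00026) and of -3.23 for ficolin-2 (adjusted p = 0.00084).

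The family did not move as a whole, with a log2 fold change above 0 in 123 members and below 0 in 93. A ficolin-1 (Cluster-2499.140838) had 0.0647, 0.145 and 0.269 CPM in combined livers, against 2.86, 2.12 and 5.64 CPM in cadmium livers (log2 fold change -4.41 ± 0.69, adjusted p = 0.00703, held). Without cadmium replicate 2 the list had 4 members called higher, and without combined replicate 1 it had 14. Toll-like receptor 2 type-2 (Cluster-2499.95743), a receptor of innate immunity, had 22.96, 27.7 and 25.8 CPM in combined livers, against 12.3, 11.3 and 12.6 CPM in cadmium livers. It rose by 1.08 ± 0.13 (adjusted p = 0.0015, held), and cadmium livers were lower than unexposed livers, which averaged 19.6 ± 0.566 CPM (log2 fold change -0.70, adjusted p = 0.0115). In the list of Toll, TNF and NF-kappa-B signalling 1 of 111 rose and 1 fell (0.901% each).

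Metal import genes rose in part. In the list of metal transport and storage 2 of 40 rose (5.0%, beside 1.12% of all clusters), none fell, and the median was 0.07. Zinc transporter ZIP2 (Cluster-2499.79570) had 95.1, 133 and 147 CPM in combined livers, against 65.8, 52.4 and 72.9 CPM in cadmium livers, and rose by 0.98 ± 0.18 (adjusted p = 0.0165). ZIP3 (Cluster-2499.85387) averaged 36.0 ± 6.28 CPM in combined livers and 18.1 ± 2.20 CPM in cadmium livers and rose by 0.99 ± 0.22 (adjusted p = 0.0297). Both lost the call without cadmium replicate 1, cadmium replicate 2 or combined replicate 3, and ZIP3 also without combined replicate 2, with adjusted p up to 0.109. The list pattern missed clusters named metal cation symporter. Among them ZIP8 (Cluster-2499.89166), which in mammals carries zinc, manganese and cadmium into cells, had 38.1, 53.3 and 51.7 CPM in combined livers, against 26.5, 19.2 and 28.6 CPM in cadmium livers. It rose by 0.95 ± 0.16 (adjusted p = 0.0089, held). Counted after the values were seen, 4 of 17 ZIP clusters (23.5%, beside 1.12% of all clusters) were higher and none lower, with a median of -0.02. Also in such a later grouping, 3 of 14 carbonic anhydrases (21.4%), which hydrate carbon dioxide and carry zinc, were higher and none lower. Their summed level was 178 ± 10.7 CPM in combined livers and 135 ± 7.32 CPM in cadmium livers.

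The extracellular matrix list differed in its summed level without overlap of the groups, while its members went both ways. The list of collagens and extracellular matrix summed to 25036, 23549 and 26047 CPM in combined livers, against 17978, 18851 and 22626 CPM in cadmium livers (exact permutation p = 0.1, the smallest possible). Of 151 members 6 were called higher (3.97%, beside 1.12% of all clusters) and 4 lower (2.65%, beside 1.38%). The log2 fold change lay above 0 in 76 and below 0 in 73, with a median of 0.01. The clusters named below hold a small part of the sum, and which clusters carry its gap was not tested. Without cadmium replicate 1, cadmium replicate 2 or combined replicate 3, 3 members were called higher. The alpha-4(VI) collagen of Cluster-2499.80169, a fibril-linking type, had 172, 180 and 180 CPM in combined livers, against 100, 106 and 122 CPM in cadmium livers (log2 fold change 0.70 ± 0.11, adjusted p = 0.00828, held). A cartilage matrix protein (Cluster-2499.87991) averaged 120 ± 13.9 CPM in combined livers and 75.0 ± 5.51 CPM in cadmium livers (log2 fold change 0.68 ± 0.11, adjusted p = 0.00835, held). Collagen alpha-1(II) chain (Cluster-2499.83514) went against these, with 55.1, 41.4 and 54.4 CPM in combined livers, against 84.3, 81.7 and 84.1 CPM in cadmium livers (log2 fold change -0.73 ± 0.13, adjusted p = 0.0118, held).

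**Figure D4:**
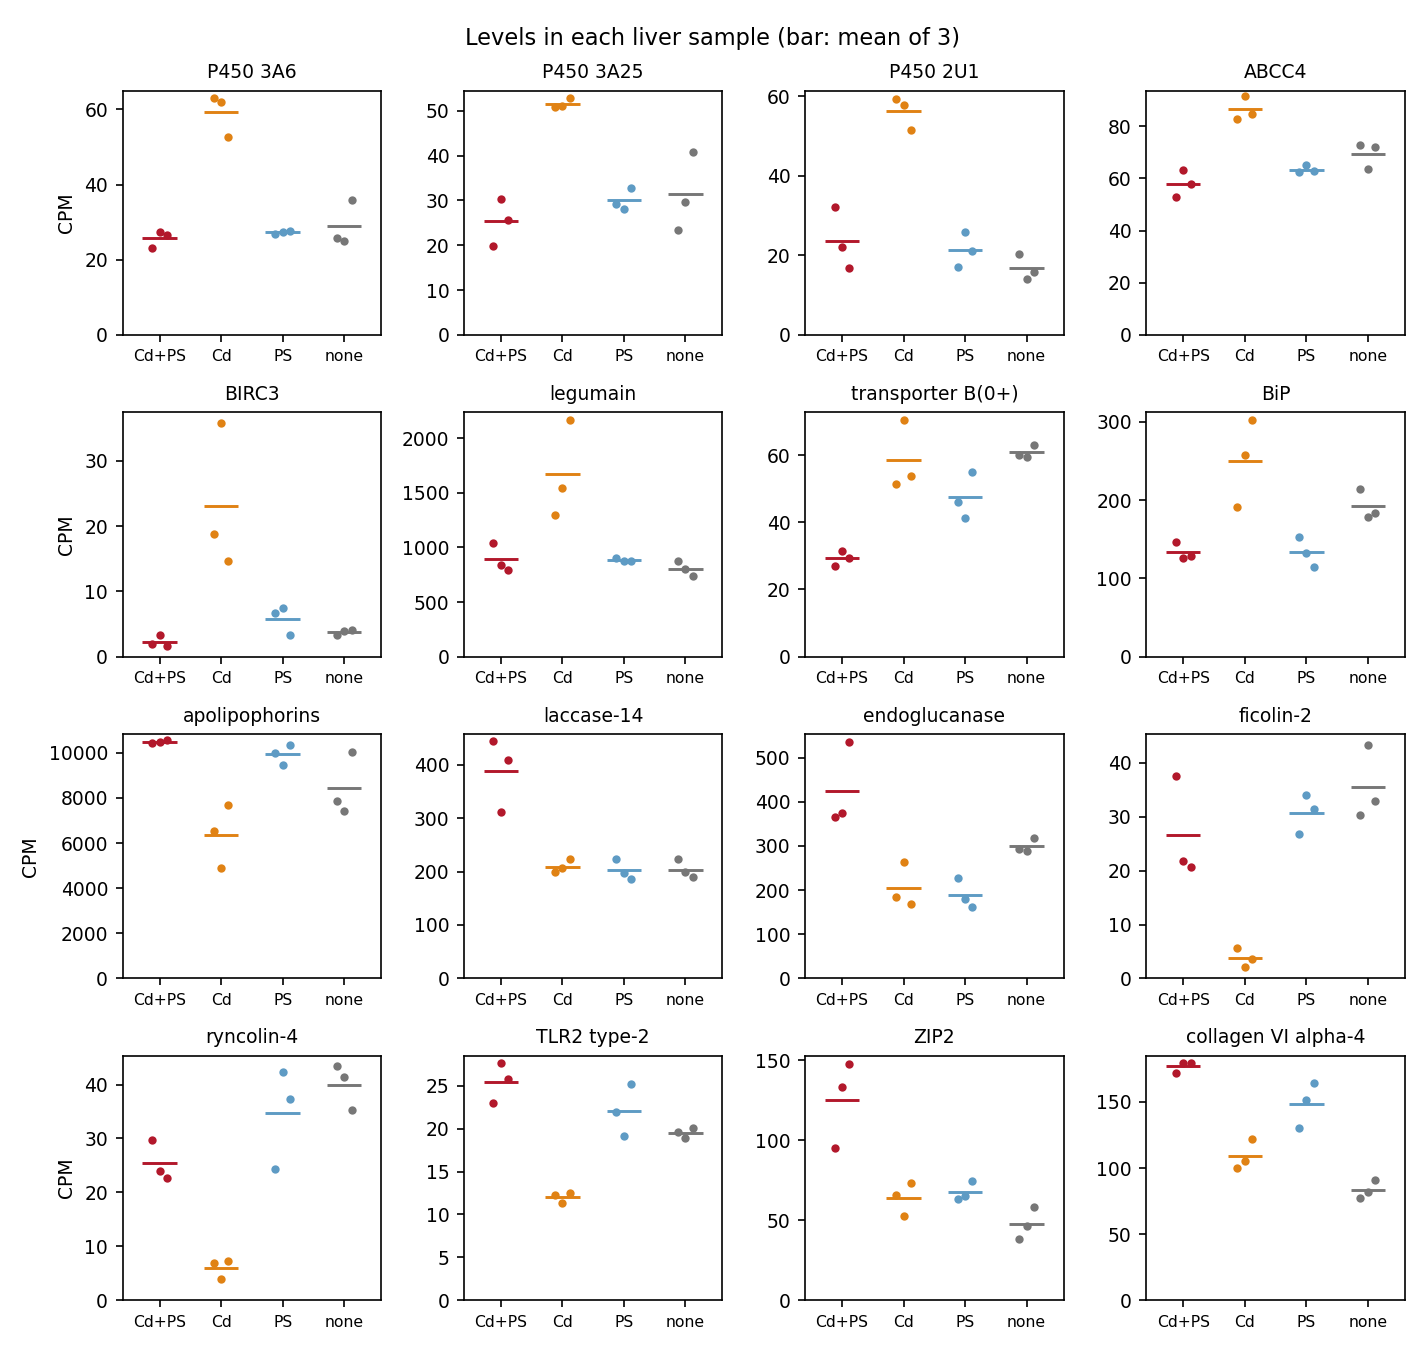
CPM in each liver sample for 16 genes, on linear axes from 0, in the combined (Cd+PS), cadmium (Cd), polystyrene (PS) and unexposed (none) livers from left to right, with bars at the mean of 3. For P450 3A6, BIRC3 and legumain every cadmium liver lies above all other livers, for ficolin-2 and ryncolin-4 below them, and for laccase-14 every combined liver lies above all others.

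Some clusters were near absent in all samples of a group. Of the 771 called lower, 109 had no count in any combined liver, and of the 622 called higher, 52 had none in any cadmium liver. The share of such clusters among all those tested was not counted. The filter ran over the 4 liver groups, so a cluster empty in 1 group entered the test through its counts in the others. A TRPV4 (Cluster-2499.8951), a calcium-permeable channel that senses heat and stretch in mammals, had 13.4, 23.1 and 13.2 CPM in combined livers and no count in any cadmium liver. Set against a floor of 3 counts over the cadmium livers, it was at least 238-fold higher (adjusted p = 0.000878, held). Polystyrene livers averaged 3.69 ± 2.06 CPM and unexposed livers 0.0462 ± 0.0801 CPM. A cluster named for phosphatase kappa of the receptor tyrosine type (Cluster-2499.164518) had 10.0, 3.76 and 6.45 CPM in combined livers, against 0, 0.0643 and 0 CPM in cadmium livers (adjusted p = 0.00177, held). Hemicentin-1 (Cluster-2499.108007), a long matrix protein, had 12.6, 4.48 and 7.53 CPM in combined livers, against 0.408, 0.321 and 0.571 CPM in cadmium livers (log2 fold change 4.23 ± 0.54, adjusted p = 0.0022, held).

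In the other direction, a cluster named basement membrane-specific heparan sulfate proteoglycan core protein (Cluster-2499.122000) had no count in any combined liver, against 5.38, 8.29 and 1.71 CPM in cadmium livers, and was at least 78.2-fold lower (floor of 3 counts over the combined livers, adjusted p = 0.00406, held). The largest called decrease of a named gene was in a von Willebrand factor D and EGF domain-containing protein (Cluster-2499.92589), with 0, 0 and 0.0672 CPM in combined livers, against 157, 18.3 and 43.9 CPM in cadmium livers (adjusted p = 0.0135, and up to 0.0924 without combined replicates 2 or 3). The floors cover counting error only. In both clusters the cadmium livers varied widely, while the combined livers had next to no reads.

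In 3 lists of core cell machinery, edgeR called 0 of 101 cytosolic ribosomal protein clusters, 0 of 42 proteasome subunits and 0 of 59 nuclear-encoded respiratory subunits. At an unadjusted p under 0.05 there were 4, 5 and 4 in these lists, beside 9774 of all 55762 clusters tested. DESeq2 called 0 in each. Medians lay at -0.02, -0.02 and -0.01. Transcripts of the mitochondrial genome summed to 19056, 20555 and 19004 CPM in combined livers, against 22211, 23897 and 25150 CPM in cadmium livers (exact permutation p = 0.1), with 5 of 75 members lower and none higher, and none lower without cadmium replicate 1 or combined replicate 3. Cytochrome c oxidase subunit 1, the catalytic core of the last respiratory complex, averaged 3883 ± 199 CPM in combined livers and 5466 ± 307 CPM in cadmium livers (log2 fold change -0.49 ± 0.12, adjusted p = 0.0478). The call was lost without any 1 of the 6 compared livers or the 3 polystyrene livers (adjusted p up to 0.154).

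The other lists held few calls, beside 1.12% of all clusters higher and 1.38% lower, and single libraries moved their counts. Among membrane nutrient carriers 4 of 164 were higher and 5 lower, among secreted giant glycoproteins and mucins 4 of 194 were higher and 5 lower, and among transposable elements 6 of 396 were higher and 5 lower. Without combined replicate 3, 0 carriers and 1 glycoprotein were higher and 0 glycoproteins lower. Carriers had 1 lower without cadmium replicate 2 or combined replicate 2, and transposable elements 0 higher without cadmium replicate 2. Glycolysis and citric acid cycle genes had 3 of 76 higher and 1 lower, and 0 higher without cadmium replicates 1 or 2 or combined replicates 2 or 3. GTPases of the IMAP family, which act in lymphocyte survival in mammals, had 1 of 101 higher and 3 lower, but 5 higher and 0 lower without combined replicate 3, and 6 lower without cadmium replicate 3. Of C1q-like proteins and lectins 1 of 92 was higher, and of protease inhibitors 1 of 40. EdgeR called 0 of 34 oxygen carriers and 0 of 71 cell division genes. Yet 28 of these oxygen carriers (median -0.25) and 53 of these cell division genes (median -0.18) lay below 0, beside 27819 of all 55762 clusters. In these lists 5 and 9 passed an unadjusted p of 0.05, beside 9774 of all 55762 clusters tested, and DESeq2 called 1 lower in each.

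Markers of other cells moved with the groups in places. Ciliary genes summed to 460, 510 and 507 CPM in combined livers, against 821, 798 and 562 CPM in cadmium livers, while polystyrene livers averaged 884 CPM and unexposed livers 1171 CPM. Of the 119 ciliary members tested 102 lay below 0 (median -0.66), 1 was called lower and 2 higher. Egg and albumen gland genes summed to 1156 ± 82.7 CPM in combined livers and 1576 ± 124 CPM in cadmium livers. Their members did not move together: of 21 tested 10 lay above 0 and 11 below (median -0.03), and 0 were called. In bulk samples, fewer cells of a type and less RNA per cell cannot be told apart. Muscle genes, with a sum of 2984 ± 10.5 CPM in combined livers and 2840 ± 230 CPM in cadmium livers, and neuronal genes, with 2454 ± 98.6 CPM in combined livers and 2411 ± 168 CPM in cadmium livers, overlapped between the groups. The part of these markers in the changes above was not tested.

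The same contrast in brain, from separate libraries, had 1785 of 64046 clusters called (2.79%), 802 higher and 983 lower. Of the 1393 liver calls 876 were tested in brain and 78 were called there, 63 in the same direction and 15 in the opposite direction. These are 5.6% of the liver calls and 4.37% of the brain calls. Of the calls that the other tissue could test, they are 8.9% of 876 from liver and 7.35% of 1061 from brain. A test of the difference between tissues called 586 of 78809 clusters (0.744%), among them 136 of the 1392 liver calls it covered. The brain groups also differed in marker sums. Muscle genes summed to 39870 to 61070 CPM in combined brains and 25960 to 35540 CPM in cadmium brains. Carbohydrate-digesting enzymes summed to 3888 to 5759 CPM in combined brains and 6372 to 7086 CPM in cadmium brains. The part of these markers in the brain calls and tissue differences was not tested.

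In brain 2 ER chaperones, BiP and endoplasmin, fell. All 22 members tested lay below 0, with a median of -0.44 against -0.01 over all brain clusters, and the difference between tissues was called for 0 of 23. Such a shift in brain was not particular to chaperones. Below 0 lay also 98 of 104 ribosomal protein clusters (median -0.33) and 32 of 38 oxygen carriers (median -0.60), while muscle genes had a median of 0.34. BiP averaged 408 ± 141 CPM in combined brains and 879 ± 169 CPM in cadmium brains (SD, n = 3 each, log2 fold change -1.11 ± 0.27, adjusted p = 0.0425), and endoplasmin fell by 0.83 (adjusted p = 0.0492). HSP 90-beta averaged 187 ± 8.81 CPM in combined brains and 383 ± 12.96 CPM in cadmium brains (adjusted p = 0.0158). The calls in brain rested on single libraries: without brain cadmium replicate 4, BiP, endoplasmin and HSP 90-beta were not called. Over the 6 omissions of a compared brain, BiP lost its call in 5 (adjusted p up to 0.173), endoplasmin in 6 (up to 0.186) and HSP 90-beta in 3 (up to 0.0654). ABCG2, ABCB1, BIRC3 and PARP14 (Cluster-2499.100621) also fell in brain, with log2 fold changes of -1.10, -0.82, -1.33 and -1.06 and adjusted p of 0.0157, 0.0397, 0.048 and 0.0175. All 4 lost the call without brain cadmium replicate 5 or brain combined replicate 5, with adjusted p up to 0.195 for ABCB1. Cytochrome P450 3A6 (Cluster-2499.103464) had a log2 fold change of -0.03 in brain (adjusted p = 0.987), where its level was 5.79 CPM in combined brains and 5.94 CPM in cadmium brains. The difference between tissues was not called for it (adjusted p = 0.265). UBC12 and A-kinase anchor protein 7 fell more in liver than in brain, with called differences of 1.38 (adjusted p = 0.0358) and 2.01 (adjusted p = 0.0285) on the log2 scale, brain minus liver. Both differences lost their call in several omissions, among them brain cadmium replicate 4 and liver combined replicate 3, with adjusted p up to 0.136 for UBC12 and 0.0812 for A-kinase anchor protein 7. The differences for TRPV4, hemicentin-1 and apolipophorins were called in all 12 omissions. Hemicentin-1 was also called in brain (adjusted p = 0.000282), in all 6 omissions of a compared brain. Its difference of -7.9, brain minus liver, is larger in size than its rise in liver, so it fell in brain.

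**Figure D5:**
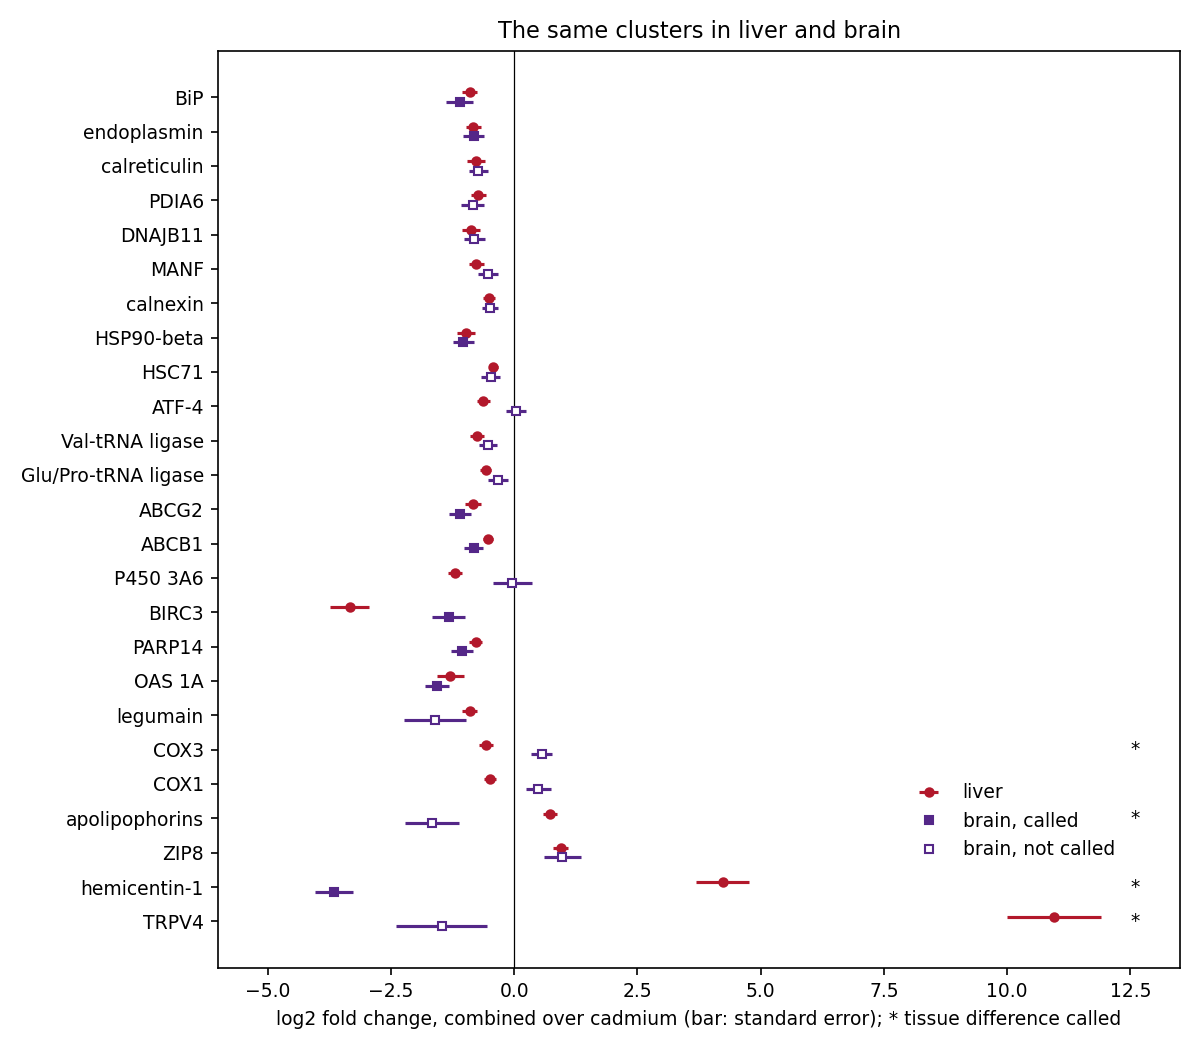
Log2 fold change, combined over cadmium, with its standard error in liver (red circles) and brain (purple squares, filled where called) for 25 clusters called in liver; a star marks a called difference between tissues. BiP lies at -0.91 in liver and -1.11 in brain, and cytochrome c oxidase subunit 3, apolipophorins, hemicentin-1 and TRPV4 carry a star.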

How the data were processed

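The authors deposited 1 table of expected counts for 233875 assembled clusters in 24 samples, with product names beside them, per the file headers. Between 3.54 and 7.14% of a sample's values were not whole, and they were rounded. The assembler, aligner and counter are not given in the sources used here. A mouse build, mm10, stands in the submitters' processing notes. No coordinates were used here. RNA was extracted with a column kit and made into libraries with a kit for mRNA sequencing, per the labels' protocols.

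Clusters were filtered with filterByExpr (minimum count 10), which kept 98.6 to 98.9% of the counts, scaled by TMM (factors 0.915 to 1.064) and fitted with edgeR's quasi-likelihood test over the 12 livers in 4 groups, with Benjamini-Hochberg adjustment over all clusters tested. The brain fit and the test of the difference between tissues were made in the same way. CPM are TMM-scaled, list sums run over the tested members, and the tissue check used unscaled CPM. The fits were tested on simulated data with 200 changed clusters, all drawn from clusters above a minimum mean count. There the liver fit recovered 22, 74, 84 and 94% at folds of 2, 4, 8 and 16, with 8 false among 145 calls.

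Named genes were taken by rule: called clusters without overlap with the 12 largest changes each way at 5 CPM or more, or the 6 highest levels each way, up to 3 called members of each list each way by adjusted p, and the 2 members of each list with the highest CPM. The text names some of these. It also names further members of the lists, such as protein disulfide-isomerase A6 and MANF, and does not mark every gene that lies outside the rule. The members and lists were chosen with earlier results of these data known. Alternatives were other size factors, filters, sample sets, a replicate block, a minimum fold, DESeq2 and the omission of each sample.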

Additional observations from a re-analysis of the deposited data

Results flagged for a closer look

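The change with added polystyrene differed between tissues, by an adjusted test of the difference itself, in 18 of the clusters that the rule for named genes picked and that were called in liver. Clusters named outside that rule, such as UBC12 and A-kinase anchor protein 7, are not counted here. Values are log2 differences, combined minus cadmium in brain minus the same in liver. A negative value means that the change was lower in brain than in liver.

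The 10 negative values belong to clusters that were higher in combined livers. They were -12.79 for transient receptor potential cation channel subfamily V member 4, -7.9 for hemicentin-1, -4.68 for complement C1q-like protein 3, -2.4 for apolipophorins and -2.05 for metalloproteinase inhibitor 3-like. The others were baculoviral IAP repeat-containing protein 7-B (-3.27), low-density lipoprotein receptor-related protein 2 (-2.16), phospholipase A and acyltransferase 2 (-5.47), the amino acid transporter B(0)AT1 (-1.37) and deleted in malignant brain tumors 1 protein (-4.93).

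The difference was positive for basement membrane-specific heparan sulfate proteoglycan core protein (14.26), transposon Ty3-I Gag-Pol polyprotein (9.65), mucin-like protein (6.53), NADH-ubiquinone oxidoreductase chain 5 (6.06) and GTPase IMAP family member 9 (5.82). It was also positive for PiggyBac transposable element-derived protein 4 (2.85), intraflagellar transport protein 172 homolog (2.45) and cytochrome c oxidase subunit 3 (1.11). Several of these clusters had next to no counts in 1 tissue or group, where the fitted size depends on the prior count. With each compared sample left out in turn, the calls of the channel, hemicentin-1, apolipophorins, the IAP protein, deleted in malignant brain tumors 1 protein, mucin-like protein and the PiggyBac cluster held in all 12 omissions, and the other 11 lost the call in at least 1.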

How the results depend on the processing

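The count of liver calls, 1393, was 1396 with DESeq2 size factors, 1319 with the strict filter, 1061 with a log2 fold change of at least 1, 3300 with the DESeq2 Wald test, 4882 with no filter and 623 with only the compared samples. Calls higher, 622, became 1508, 2341 and 276 under these last 3 settings, and calls lower, 771, became 1792, 2541 and 347. Leaving out 1 liver gave 442 to 2007 calls, 171 to 1036 higher and 223 to 971 lower. Brain calls, 1785, were 4493 with no filter and 780 to 1409 with 1 sample left out. Calls of a difference between tissues, 586, were 2166 with no filter, 357 with only the compared samples and 329 to 720 with 1 sample left out.

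Lower ER chaperones, 9, were 4 with only the compared samples, 0 at a log2 fold change of at least 1 and 2 to 9 with 1 liver left out. Lower ABC transporters, 8, were 1 with only the compared samples, 2 at that minimum, 5 with the replicate block and 2 to 8 with 1 left out. Lower synthetases and amino acid supply genes, 8, were 13 with DESeq2, 18 with no filter, 3 with only the compared samples, 0 at that minimum and 3 to 14 with 1 left out. Higher ficolins, 11, were 19 with DESeq2, 24 with no filter, 5 with only the compared samples and 4 to 14 with 1 left out. Lower P450 of families 3 and 4, 6, were 8 with DESeq2 and 3 to 7 with 1 left out. Higher P450 of these families, 0, were 4 with DESeq2 and 3 without control replicate 1. The cause of these shifts was not tested. No named cluster called in liver changed its sign under an alternative, but the balance of counts did turn. Calls were 1036 higher and 971 lower without combined replicate 1, and 413 higher and 352 lower without combined replicate 2. The IMAP list had 5 higher and 0 lower without combined replicate 3, against 1 higher and 3 lower with it.

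The replicate block gave 1130 liver calls, 520 higher and 610 lower, and 1471 in brain. Deviations of same-numbered livers correlated at -0.0612, -0.0352 and -0.00203, and those of differently numbered livers at -0.0221 to 0.0489. Deviations from a mean of 3 samples constrain each other, so these values cannot decide whether the numbers pair the samples. Of 238 named called clusters, 237 kept their call with the DESeq2 Wald test, 184 with the replicate block and 98 with only the compared samples. In simulated data the liver fit found 22% of changes of 2-fold, which limits what is said of genes not called. The changed clusters there lay above a minimum mean count, so recovery at lower counts was not measured.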
